A study of Bos taurus with 15 samples.

Results

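The mitochondrial respiratory chain of bovine testis was followed through 77 genes, out of 13445 genes with a tested probe. They were chosen by name alone. A gene was taken when its array name, or the symbol in brackets in the array's description, was CYC1, CYCS or CYCT or began with one of the family names of the respiratory complexes (NDUFA, NDUFB, NDUFC, NDUFS, NDUFV, SDH, UQCR, COX4 to COX8 and ATP5). Each of the 77 was read by 1 probe, and all 77 probes were bright enough to be tested. They comprised 7 core and 27 accessory subunits of complex I, 4 subunits of complex II and 7 of complex III. They also held the somatic cytochrome c gene CYCS, 11 ubiquitous subunits of complex IV and 4 genes listed as its tissue forms. Complex V gave 15 subunits, of which 9 belong to the F1 head and stalks and 6 to the membrane part. The remaining gene, DMAC2L, carries the old array name ATP5S and is not an enzyme subunit by its current name. On the array, 20 of the 77 carry older names, and the current symbols are used below.

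Complexes I and II pass electrons from NADH and succinate to ubiquinone, complex III passes them on to cytochrome c, and complex IV hands them to oxygen. Complexes I, III and IV pump protons while doing so, and complex V uses the proton gradient to make ATP. Several small subunits of complex IV, and cytochrome c itself, exist as a common form and as a second form made in a particular tissue such as muscle or testis. The testis forms are known from germ cells, while the other cells of the testis use the common forms.

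Testis tissue came from 15 cattle. The 7 controls received no treatment, and the 8 treated animals received prednisolone, a synthetic glucocorticoid, at 30 mg per head daily by mouth for 35 days. Genotype, breed and age are not stated in the labels, and each array held the RNA of 1 animal. By the file headers, only slides 1 and 4, both of scan day 1, held both groups. Slides 2 and 3, of scan days 2 and 3, held controls 20, 21, 22 and 24. Slides 5, 6 and 7 held prednisolone 27, 28, 31 and 32, so group is partly confounded with slide and scan day. Each level below is the log2 signal of a probe relative to the 75th percentile of its array, and each difference is the treated mean minus the control mean on that log2 scale.

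The array of prednisolone 30 stood apart from the others. Of all probes, 36.5% were well above background there, against 82.2% to 89.9% on the other 14 arrays, and its 75th percentile of signal was 49.8 against 1220 to 2780. The correlation of its log2 levels with those of the other arrays was 0.705 to 0.736, while any 2 of the other 14 correlated at 0.962 or more. Its scanner values also did not follow its column in the authors' deposited table: after centring each gene, file and column correlated at 0.0145 for this animal and at 0.761 to 0.961 for the others. For many genes, values without prednisolone 30 are therefore given beside those over all animals, and for some also without control 17, which stood apart in its cell markers as described below.

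The tissue label held against its markers. Of 20 spermatid markers, 18 were well above background on all 7 control arrays, among them the protamine gene PRM1 and the transition protein genes TNP1 and TNP2, and PRM2 and CAPZA3 were not. All 6 Leydig cell markers and all 10 Sertoli cell markers were well above background on all control arrays too. Of the complex IV and cytochrome c forms known from testis, COX6B2 alone was measured here.

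**Figure D1:**
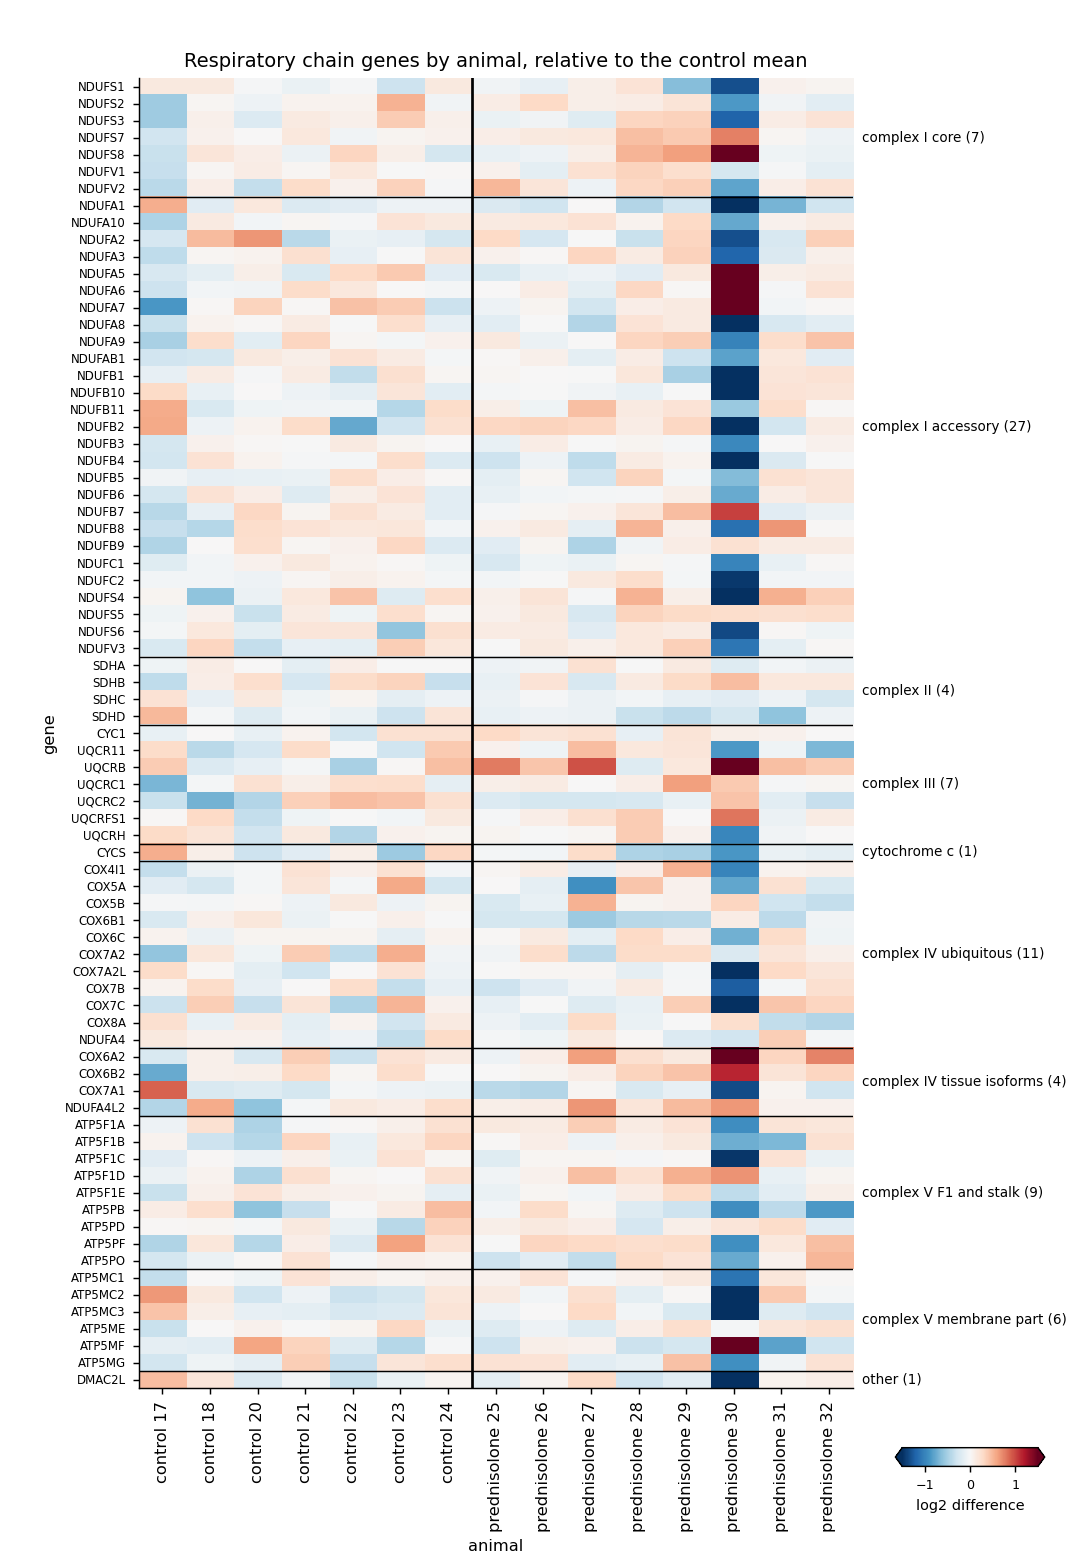
Each row is 1 of the 77 genes, grouped by complex with the number of genes in brackets, and each column is 1 animal (7 controls left of the black line, 8 treated animals right of it). Colour gives the log2 level minus the mean of the controls, with stronger differences than the ends of the scale shown in the end colours. Prednisolone 30 differs from all other animals along most of its column, while the other treated columns stay close to the controls.

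No respiratory chain gene passed the adjusted threshold between treated and control testis. In the limma fit, an adjusted p under 0.05 was reached by 0 of the 77 genes, where 0% of all 13445 genes reached it. The lowest adjusted p among the 77 was 0.883 over all 15 animals and 0.98 without prednisolone 30. At an unadjusted p under 0.05, 2 of the 77 were lower in treated animals, NDUFA1 and COX6B1, where 0.967% of all tested genes were lower, and 0 were higher, where 1.46% of all genes were. Without prednisolone 30, NDUFA1 and COX6B1 were again the 2 lower genes (1.68% of all genes) and UQCRB was the 1 higher gene (2.47% of all genes). In the authors' deposited values, 3 genes were lower at that level, COX6B1, NDUFA1 and SDHD (2.36% of all genes), and 0 were higher (2.82% of all genes). In whole tissue, fewer cells of a type and less RNA per cell cannot be told apart.

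As a group, the 77 genes lay close to 0, and the side on which most of them fell turned with 1 animal. Over all 15 animals, 48 of the 77 differences were below 0 (48.1% of all genes), and their median was -0.045 against 0.014 for all genes. Without prednisolone 30, 25 were below 0 (47.5% of all genes), with a median of 0.044 against 0.011. The deposited values gave 36 below 0 (50.7% of all genes) and a median of 0.020 against -0.0034. Leaving out control 17 instead gave 53 below 0 (49.7% of all genes), and leaving out both animals gave 34 (48.3% of all genes). Scaling each array to its median gave 57 (57.1% of all genes), and normexp background correction gave 55 (35.4% of all genes). Array weights, which give less weight to arrays that depart from the fit, gave 34 (49.6% of all genes). Within the 9 animals of the 1 scan day that held both groups, 41 were below 0 (46.9% of all genes).

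**Figure D2:**
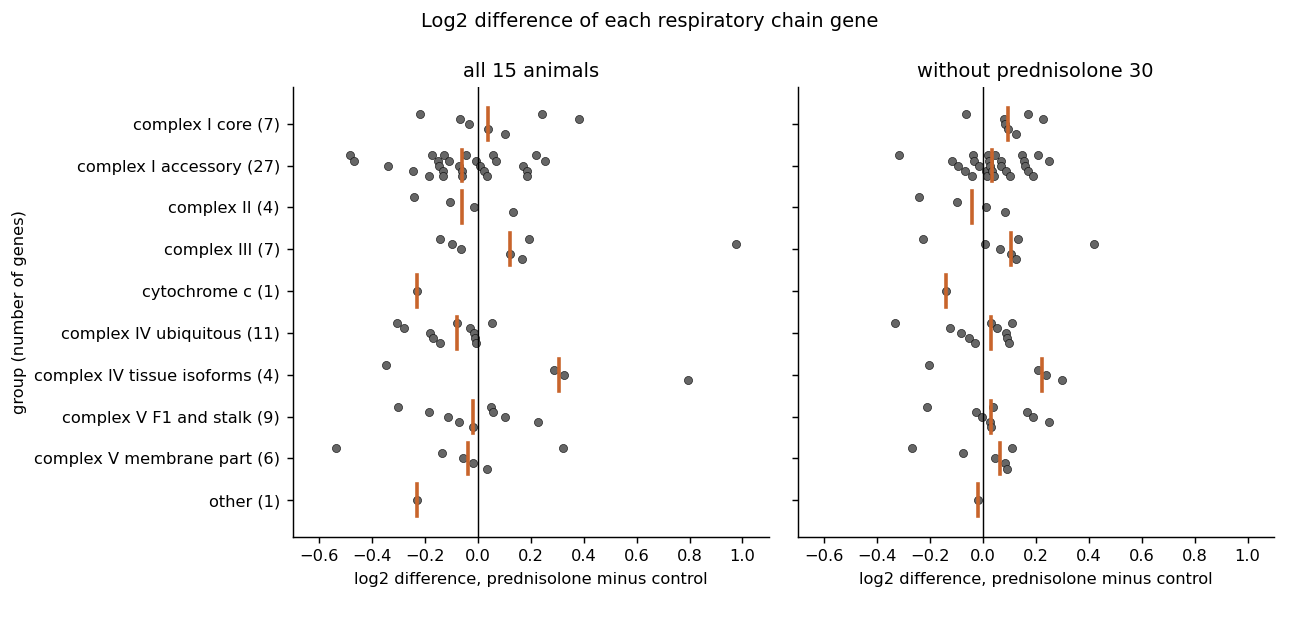
Each point is the log2 difference of 1 gene, treated minus control, with the genes grouped by complex and the number of genes in brackets, and the orange bar is the median of the group. The left panel holds all 15 animals and the right panel leaves out prednisolone 30, which draws UQCRB and COX6A2 in from differences of 0.98 and 0.79 to 0.42 and 0.30.

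Complex I takes electrons from NADH, and none of its 34 genes passed the adjusted threshold. The 7 core subunits, which carry the flavin and the iron-sulfur clusters, had a median difference of 0.037 over all animals. Of the 7, 4 were above 0 there, where 6976 of all 13445 genes were. Without prednisolone 30 the median was 0.094 and 6 were above 0 (7062 of all genes). Without control 17 it was -0.021 with 3 above 0 (6757 of all genes). Without both animals it was 0.022 with 5 above 0 (6945 of all genes). NDUFS1, the largest iron-sulfur subunit, ranged from -2.48 to -2.02 in controls (median -2.18) and from -3.49 to -1.97 in treated animals (median -2.17). Prednisolone 30 was the lowest animal and its NDUFS1 probe was not well above background, while the other treated animals began at -2.81 and overlapped the controls. The difference in NDUFS1 was -0.22 with a standard error of 0.21, or -0.062 without prednisolone 30 and -0.038 without control 17 as well. NDUFV1, the subunit that binds NADH, ran from 3.34 to 3.84 in controls and from 3.42 to 4.02 in treated animals, and it differed by 0.037 with a standard error of 0.13, by 0.079 without prednisolone 30 and by -0.021 without control 17. NDUFS7, which holds the iron-sulfur cluster nearest to ubiquinone, ran from 2.87 to 3.31 in controls and from 3.07 to 3.91 in treated animals. Although 7 of 8 treated animals were above the control mean of NDUFS7, the groups overlapped, and the difference was 0.24 with a standard error of 0.14 (limma adjusted p = 0.883), or 0.12 without control 17 and prednisolone 30.

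The 27 accessory subunits of complex I had a median difference of -0.060 over all animals and 0.035 without prednisolone 30. Their differences ran from -0.48 to 0.26 over all animals and from -0.32 to 0.25 without prednisolone 30, and the lowest in both was NDUFA1. NDUFA1, a small membrane subunit needed for assembly of the complex, was the gene of this group with the smallest unadjusted p. Its control levels ran from 1.34 to 2.09 (median 1.47), and its treated levels from -0.078 to 1.56 (median 1.25). Prednisolone 30 was the lowest treated animal and control 17 the highest control, and 7 of 8 treated animals were below every control, with prednisolone 27 at 1.56 inside the control range. The difference in NDUFA1 was -0.48 with a standard error of 0.21 (unadjusted p = 0.0394, limma adjusted p = 0.883). It was -0.32 without prednisolone 30 (unadjusted p = 0.0348 in the limma fit), -0.39 without control 17 (unadjusted p = 0.0871) and -0.23 without both (unadjusted p = 0.0697). In the limma fits with a block it was -0.67 for scan day (unadjusted p = 0.0591) and -0.62 for slide (unadjusted p = 0.101), and within slide 1, with 2 animals a group, it was -0.44. Of the 77 genes, NDUFA1 and COX6B1 were the 2 with at least 6 of 8 treated animals below every control (0.476% of all genes), and 0 had 6 above every control (0.513% of all genes).

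Complex II oxidises succinate and shares this step with the citric acid cycle. SDHA, its flavoprotein, hardly varied, with controls from 3.90 to 4.15, treated animals from 3.85 to 4.27 and a difference of -0.013 with a standard error of 0.11, or 0.013 without prednisolone 30 and -0.023 without control 17. SDHB, its iron-sulfur protein, ran from 4.34 to 5.05 in controls and from 4.48 to 5.18 in treated animals and differed by 0.13 with a standard error of 0.16. Without prednisolone 30 the SDHB difference was 0.084, without control 17 it was 0.069 and without both it was 0.022. SDHD, one of the membrane anchors, ran from -0.94 to -0.15 in controls (median -0.67) and from -1.23 to -0.70 in treated animals (median -0.82). Control 17 was the highest animal for SDHD and the probe was not well above background in prednisolone 30. Below every control lay 3 treated animals, and all 8 were below the control mean. The difference in SDHD was -0.24 with a standard error of 0.14 (unadjusted p = 0.111, limma adjusted p = 0.883), the same to 2 decimals without prednisolone 30, and -0.16 without control 17. In the authors' deposited values it was -0.28 (unadjusted p = 0.0264 in the limma fit).

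Complex III hands electrons from ubiquinone to cytochrome c. Its 7 genes had a median difference of 0.12 over all animals and 0.11 without prednisolone 30. Above 0 were 4 of the 7 over all animals (6976 of all 13445 genes) and 6 without prednisolone 30 (7062 of all genes). Without control 17 the median was 0.052 with 4 above 0 (6757 of all genes). Without both animals it was 0.11 with 6 above 0 (6945 of all genes). UQCRB, a small subunit close to the ubiquinone-binding cytochrome b, ran from -5.83 to -4.90 in controls (median -5.37). Its treated levels ran from -5.55 to -0.48 (median -4.91). The value of -0.48 came from prednisolone 30, where the UQCRB probe was not well above background. The other treated animals reached -4.39, and 2 of them were above every control. The difference in UQCRB was 0.98 with a standard error of 0.57 (unadjusted p = 0.105) and was 0.42 with a standard error of 0.18 without prednisolone 30 (unadjusted p = 0.0348, limma adjusted p = 0.98). In the deposited values it was 0.33 (unadjusted p = 0.0662 in the limma fit). With slide as a block it was 1.31, and within slide 1, which prednisolone 30 was not on, it was 0.51, and after normexp background correction over all animals it was 0.38.

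The central subunits of complex III varied around 0. UQCRC1, a core protein, ran from 3.27 to 4.22 in controls, with control 17 the lowest, and from 3.94 to 4.58 in treated animals, and it differed by 0.17 with a standard error of 0.16. Without control 17 the UQCRC1 difference was 0.052, and without prednisolone 30 as well it was 0.021. CYC1, which carries the cytochrome c1 haem, differed by 0.12 with a standard error of 0.12, with 7 of 8 treated animals above the control mean. UQCRFS1, the Rieske iron-sulfur protein, differed by 0.19 with a standard error of 0.15, or 0.11 without prednisolone 30, and its highest animal was prednisolone 30 at 2.31. UQCRC2, the other core protein, spread more between animals than most of the 77 genes. Its controls ran from 0.70 to 1.88 and its treated animals other than prednisolone 30 from 1.07 to 1.30, inside the control range. In prednisolone 30 it was at 1.85 with a probe not well above background. UQCRC2 differed by -0.14 with a standard error of 0.20, by -0.23 without prednisolone 30 and by -0.28 without control 17 as well.

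CYCS, the soluble carrier between complexes III and IV, ran from -2.77 to -1.68 in controls (median -2.14) and from -3.09 to -1.94 in treated animals (median -2.34). Control 17 was the highest animal and prednisolone 30, where the probe was not well above background, the lowest. The difference in CYCS was -0.23 with a standard error of 0.20 (limma adjusted p = 0.883). It was -0.14 without prednisolone 30, -0.14 without control 17 and -0.048 without both.

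Complex IV is the oxygen-consuming enzyme, and its 11 ubiquitous nuclear-encoded subunits had a median difference of -0.078 over all animals and 0.031 without prednisolone 30. COX6B1, the common form of the subunit that joins the monomers of the enzyme at the intermembrane side, was lower in most treated animals. Its controls ran from -2.36 to -1.96 (median -2.13) and its treated animals from -2.68 to -2.02 (median -2.46). Below every control lay 6 of 8 treated animals, and the other two were prednisolone 32 at -2.18 and prednisolone 30 at -2.02. On the array of prednisolone 30 the COX6B1 probe was not well above background. The difference in COX6B1 was -0.28 with a standard error of 0.13 and a 95% interval of -0.55 to -0.0059 (unadjusted p = 0.0458, limma adjusted p = 0.883). Without prednisolone 30 it was -0.33 with a standard error of 0.10 (unadjusted p = 0.00559, limma adjusted p = 0.98), the smallest unadjusted p among the 77 genes in that fit, and it was -0.33 in the deposited values. In the batch fits it was -0.20 with slide as a block (unadjusted p = 0.376 in the limma fit), -0.19 within scan day 1, -0.19 within slide 1 and -0.22 within slide 4. After normexp background correction it was -0.14 (unadjusted p = 0.67 in the limma fit).

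Among the other ubiquitous subunits of complex IV, the named genes stayed within their spread. COX4I1, the largest nuclear-encoded subunit, ran from 5.03 to 5.62 in controls and from 5.27 to 5.91 in the treated animals other than prednisolone 30, which was at 4.40. COX4I1 differed by -0.028 with a standard error of 0.19 over all animals, by 0.11 without prednisolone 30, by -0.088 without control 17 and by 0.050 without both. COX5A, a matrix-side subunit, had the largest SD within groups of the 77 genes when prednisolone 30 was left out. Over all animals its controls ran from 2.97 to 3.81 and its treated animals from 2.32 to 3.66, and it differed by -0.17 with a standard error of 0.21, or -0.081 without prednisolone 30. The differences of the small membrane subunits were 0.053 with a standard error of 0.18 for COX7A2, -0.18 with 0.20 for COX7B and -0.078 with 0.14 for COX8A. Without prednisolone 30, which was far below the other animals for COX7B, they were 0.091, -0.028 and -0.12 in the same order. Without control 17 they were -0.045 for COX7A2 and -0.039 for COX8A. Over all 11 ubiquitous genes the differences ran from -0.31 to 0.053, and without prednisolone 30 from -0.33, COX6B1, to 0.11. The array describes the COX8A probe as the heart form, so which form it reads was not settled. NDUFA4, first assigned to complex I and now counted with complex IV, differed by -0.0091 with a standard error of 0.14, by 0.031 without prednisolone 30 and by 0.016 without control 17.

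Of the 4 genes listed as tissue forms of complex IV, 3 had higher means in treated animals and 0 passed the adjusted threshold. NDUFA4L2, a relative of NDUFA4, is counted among the 4 and among the pairs below only by the list used. COX6B2, the testis form of COX6B1, ran from 3.30 to 4.35 in controls (median 4.13) and from 4.07 to 5.19 in treated animals (median 4.31). Control 17 was the lowest animal and prednisolone 30 the highest, and the other 13 animals lay between 4.05 and 4.49. All 8 treated animals were above the control mean of COX6B2 and 4 were above every control. Control 17 lowered that mean to 4.05, and prednisolone 25 (4.07) and prednisolone 26 (4.09) lay below the control median of 4.13. The difference was 0.32 with a standard error of 0.19 and a 95% interval of -0.084 to 0.73 (unadjusted p = 0.112, limma adjusted p = 0.883), 0.21 without prednisolone 30 and 0.17 in the deposited values. It was 0.20 without control 17 and 0.082 without both animals. Of 18 spermatid markers, 12 had higher treated means over all animals, but 9 did with median scaling and 8 after normexp correction. Without prednisolone 30 it was 14 of 18, without control 17 it was 7 and without both it was 11. Of all 13445 genes, 6976 were higher over all animals, 5764 with median scaling and 8681 after normexp correction. The same count of all genes was 7062 without prednisolone 30, 6757 without control 17 and 6945 without both. The mean of the 18 differed by 0.099 over all animals and by 0.14 without prednisolone 30. Both values include control 17, whose mean of the 18 was -0.69, against -0.16 to 0.40 in the other controls. The median of the 18 differences was 0.049 over all animals and 0.15 without prednisolone 30. That median was -0.062 without control 17 and 0.042 without both animals. The part of these markers in the COX6B2 level was not tested.

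The forms known from muscle lay on different sides of 0. COX6A2, the heart and skeletal muscle form, ran from -4.85 to -4.17 in controls (median -4.46) and from -4.61 to -3.78 in the treated animals other than prednisolone 30. That animal was at -0.27, and its 7 skeletal muscle markers averaged 2.21 above their means over the arrays, where the other animals lay between -0.52 and 0.14. Other lists stood out on this array as well, with means of 1.35 for endothelium, 0.93 for 2 epididymis genes, 0.72 for adipocyte and blood genes and -0.99 for Sertoli markers. Of the 9 skeletal muscle markers listed, MYH1 and TNNT3 were too dim to be tested, and the part of the markers in the COX6A2 level was not tested. In the deposited values the COX6A2 level of prednisolone 30 was -4.50. The difference in COX6A2 was 0.79 with a standard error of 0.50 over all animals (unadjusted p = 0.134) and 0.30 with a standard error of 0.15 without prednisolone 30 (unadjusted p = 0.0658, limma adjusted p = 0.98). COX7A1, the other muscle form, ran from 0.43 to 1.59 in controls (median 0.61), and control 17 lay far above the other controls, which reached 0.67. Its treated levels ran from -0.63 in prednisolone 30 to 0.74 (median 0.44), and the difference was -0.35 with a standard error of 0.22. It was -0.20 without prednisolone 30, -0.20 without control 17 and -0.056 without both. In control 17 the 9 smooth muscle markers averaged 1.25 above their means, against at most 0.30 in the other controls, and the part of this in the COX7A1 level was not tested. NDUFA4L2, a relative of NDUFA4 known for its response to low oxygen, ran from -1.60 to -0.44 in controls. Its treated levels ran from -0.93 to -0.33. All 8 treated animals were above the control mean of -0.99, but prednisolone 25, 31 and 32 were below the control median of -0.89. NDUFA4L2 differed by 0.29 with a standard error of 0.18 (unadjusted p = 0.134, limma adjusted p = 0.883), or 0.16 without control 17 and prednisolone 30.

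**Figure D3:**
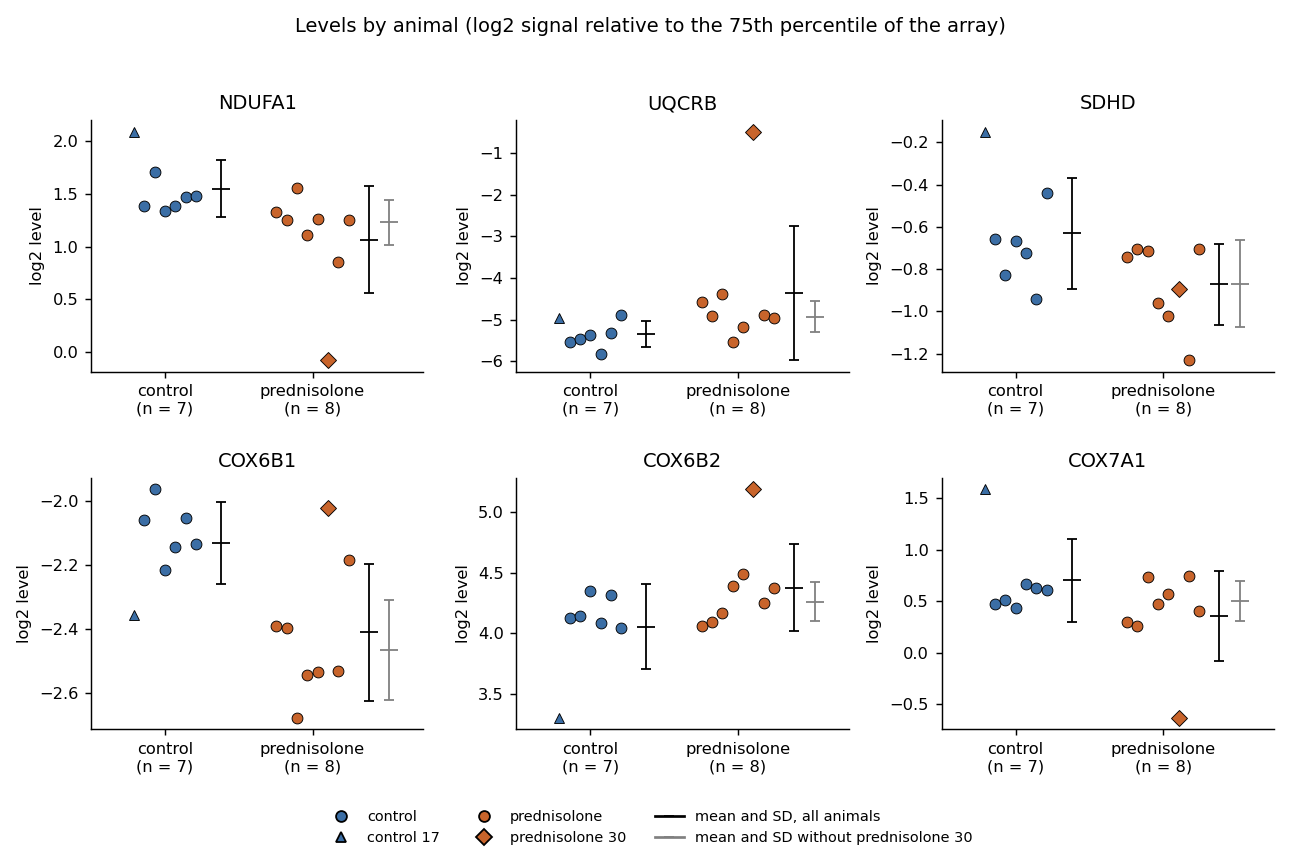
Log2 levels of 6 genes, 1 point per animal, with control 17 as a triangle and prednisolone 30 as a diamond. Black bars give the mean and SD of each group and grey bars those of the treated group without prednisolone 30. For COX6B1, 6 of 8 treated animals lie below every control. In the COX6B2 panel the lowest animal is control 17 and the highest is prednisolone 30.

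To follow the balance between a common form and its tissue form, the level of the tissue form minus that of the common form was taken in each animal and expressed relative to the control mean. The shift between animals was read, not the level of one probe against another. Both forms were measured for 5 of 9 pairs, and for COX4I2 and COX8B the tissue form carries an array name outside the naming rule. COX6B2 against COX6B1 shifted by 0.60 towards the testis form in treated animals, with an SD of 0.28 among controls and 0.27 among treated animals. Its controls ran from -0.53, in control 17, to 0.38, and its treated animals from 0.27 to 1.03, in prednisolone 30. The 1.03 rests on a COX6B1 probe that was not well above background in that animal. All 8 treated animals were above the control mean and 5 were above every control, so the ranges overlapped between 0.27 and 0.38. The shift was 0.54 without prednisolone 30, 0.51 without control 17, 0.45 without both and 0.50 in the deposited values. Over all animals COX6B2 differed by 0.32 and COX6B1 by -0.28. Without control 17 and prednisolone 30, COX6B1 differed by -0.37, so most of the shift of 0.45 was a lower common form. Within batches the shift was 0.68 on scan day 1, 0.55 on slide 1 and 0.75 on slide 4, where 1 control stood against 2 treated animals, among them prednisolone 30. On scan day 1 without control 17 and prednisolone 30 it was 0.38, and on slide 1 without control 17, which leaves 1 control, it was 0.28. It was 0.37 after normexp correction and 0.34 with array weights. Of the 18 spermatid markers, given above over all animals, 18 had higher treated means within slide 1, 9 within scan day 1 and 5 within slide 4. Of all 13445 genes, 7168, 7134 and 6494 did in the same order. The part of the spermatid markers in this shift was not tested.

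The other 4 pairs did not separate the groups either. COX7A1 against COX7A2 shifted by -0.40 with an SD of 0.74 among controls, by -0.15 without control 17 and by -0.049 without both that animal and prednisolone 30. NDUFA4L2 against NDUFA4 shifted by 0.30, with SDs of 0.47 and 0.39, but by -0.33 within scan day 1 without control 17 and prednisolone 30. COX4I2, the lung form, shifted against COX4I1 by 0.51 over all animals and 0.17 without prednisolone 30, which alone was at 2.89, and by -0.20 within slide 1. COX8B, the muscle form, shifted against COX8A by -0.92, with SDs of 1.17 and 1.76. Its controls ran from -2.56 to 0.86 (median 0.46) and its treated animals from -2.24 to 2.23 (median -1.98), and 2 treated animals were above every control.

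**Figure D4:**
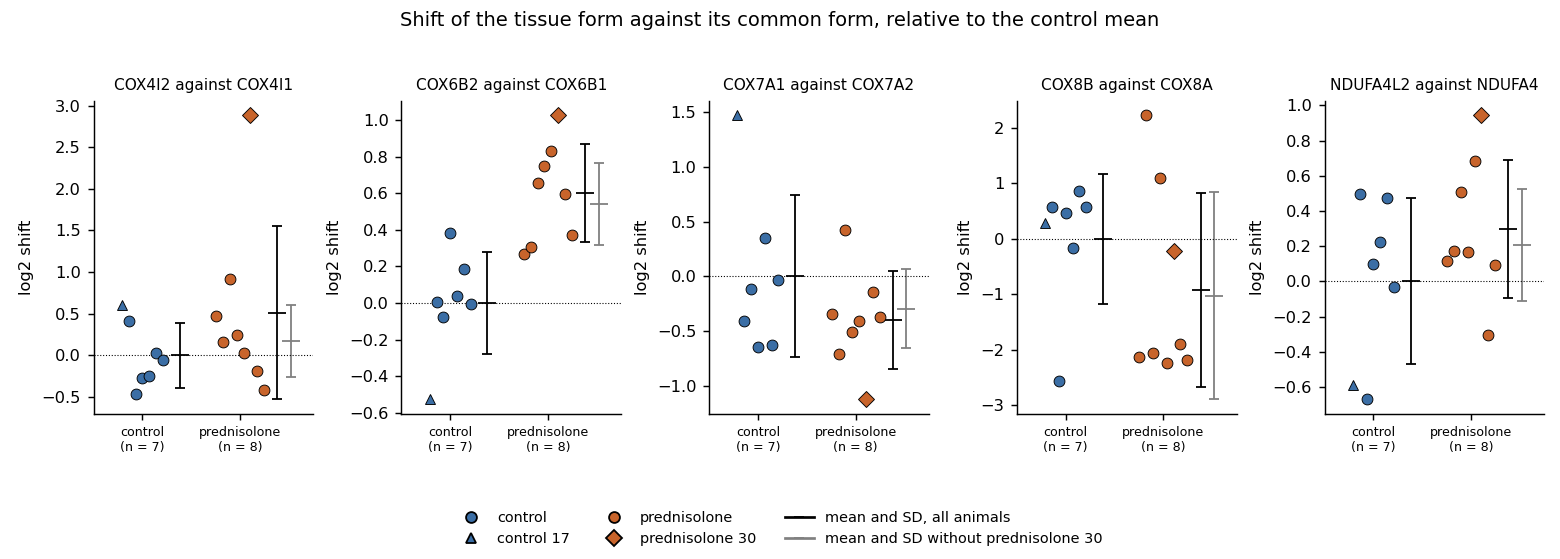
Log2 shift of a tissue form against its common form in each animal, relative to the control mean, for 5 pairs. Symbols and bars are as in the plot of gene levels, and each panel has its own scale. The treated animals of the COX6B2 pair lie between 0.27 and 1.03 and the controls between -0.53 and 0.38. The value of 1.03 is that of prednisolone 30, where the COX6B1 probe was not well above background.

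Complex V makes ATP, and its 9 head and stalk genes had a median difference of -0.019 over all animals and 0.033 without prednisolone 30. ATP5F1A, the alpha subunit of the catalytic head, ran from 3.57 to 4.27 in controls and from 4.16 to 4.40 in the treated animals other than prednisolone 30, which was at 3.10. ATP5F1A differed by 0.049 with a standard error of 0.18 over all animals and by 0.19 with a standard error of 0.11 without prednisolone 30 (limma adjusted p = 0.98). ATP5F1B, the beta subunit that forms ATP, ran from 4.32 to 5.06 in controls and from 4.01 to 4.97 in treated animals and differed by -0.11 with a standard error of 0.19, or -0.026 without prednisolone 30. ATP5PB, a subunit of the peripheral stalk, ran from -3.20 to -2.12 in controls and from -3.53 to -2.31 in treated animals and differed by -0.30 with a standard error of 0.21. The ATP5PB probe was not well above background in prednisolone 30, and without that animal the difference was -0.21. The 6 genes of the membrane part had a median difference of -0.038 over all animals and 0.063 without prednisolone 30. Their differences ran from -0.54 to 0.32 over all animals and from -0.27 to 0.11 without it.

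The array of prednisolone 30 lay at an extreme in most of the 77 genes. Its level was below that of all other animals in 47 of the 77 genes (37.5% of all genes) and above all others in 13 (35.1% of all genes). In the authors' deposited column for the same animal, 2 of 76 genes were the lowest (2.56% of all genes) and 3 were the highest (3.71% of all genes). On its array, 66 of the 77 probes were well above background, against all 77 on every other array. The levels of the 77 genes in this animal departed from their means over the other 14 with an SD of 1.45. Over all tested genes that SD was larger, at 1.85. The 14 other arrays had SDs of 0.12 to 0.38 over the 77 genes. The 2 spots of a probe of the 77 differed by a median of 0.79 on this array and by 0.041 to 0.25 on the others. Over all tested genes that median was 0.90 on this array. ATP5MF, a membrane subunit of complex V chosen here after its values were seen, turned sign with it, from 0.32 over all animals to -0.27 without prednisolone 30.

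Control 17 was the other animal that stood apart. Among the 14 arrays without prednisolone 30 it was below the 13 others in 24 of the 77 genes (25.8% of all genes) and above them in 11 (19.7% of all genes). Control 17 thus stood apart across the array and not in these genes in particular. Among the 77, the lower genes included COX6B2, COX4I1, COX7A2, NDUFV1, SDHB and UQCRC1, and the higher ones COX7A1, CYCS, NDUFA1, SDHC and SDHD. Its 18 spermatid markers averaged -0.69, against -0.16 to 0.40 in the other controls and -0.25 to 0.30 in treated animals. Its spermatocyte markers averaged -0.35, and its endothelial markers averaged 0.73 against at most -0.12 in the other controls. The part of these markers in its respiratory chain levels was not tested.

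Between animals of the same group, the 77 genes varied less than most genes on the array. Over the 14 arrays without prednisolone 30, their SD within groups had a median of 0.23, from 0.10 for NDUFC2 to 0.37 for COX5A, against a median of 0.32 for all tested genes. Genes well above background on all 14 arrays had a median SD of 0.31.

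COX6B2 is the testis form, so its level was set against the mean of 18 spermatid markers across animals. CYCS and the 5 other listed forms that were measured, NDUFA4L2 among them, were set against it too. These were 7 relations, with p by permutation and Benjamini-Hochberg adjustment over the 7. Over all 15 animals, COX6B2 correlated with the spermatid mean at r = 0.45 and rho = 0.48 (adjusted permutation p = 0.328 for r), and CYCS at r = -0.53 and rho = -0.49 (adjusted permutation p = 0.282 for r). Without the 2 animals farthest from the median, control 17 and control 23, r was -0.067 for COX6B2 and -0.16 for CYCS.

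Without prednisolone 30 the relations were much closer on the scanner values. For COX6B2, r was 0.90 and rho 0.76 over 14 animals (adjusted permutation p = 0.00063 for r), 0.80 after also leaving out control 17 and control 23 (adjusted permutation p = 0.0172), and 0.95 within scan day 1 (exact permutation test, adjusted p = 0.0169). For CYCS, the values were r = -0.84 and rho = -0.77 (adjusted permutation p = 0.00042 for r), -0.71 without the same 2 controls (adjusted permutation p = 0.0405) and -0.93 within scan day 1 (exact permutation test, adjusted p = 0.0149). Leaving out the 2 controls, the adjusted permutation p of rho was 0.107 for both genes. With prednisolone 30, r within scan day 1 was 0.41 for COX6B2 and -0.50 for CYCS. Animals with higher spermatid markers thus had higher COX6B2 and lower CYCS on these 14 arrays. Many other genes did so as well. Of all tested genes outside the marker list, 1.07% had a higher r than COX6B2 and 2.35% a lower r than CYCS. Among the 77, 16 had r above 0.7 (13.1% of all genes) and 5 had r below -0.7 (10.4% of all genes), and the highest was NDUFS3, a core subunit of complex I, at 0.94. Without control 17 as well, 8 of the 77 had r above 0.7 (5.83% of all genes) and 2 below -0.7 (4.19% of all genes), and 3.14% of all genes had a higher r than COX6B2. In the deposited values of the same 14 animals, 2 had r above 0.7 (9.10% of all genes) and 6 had r below -0.7 (6.93% of all genes).

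The relation of COX6B2 depended on how the arrays were brought to a common level. After quantile normalization without prednisolone 30, r was 0.67 but rho was 0.16 (adjusted permutation p = 0.0695 for r and 0.573 for rho). In the authors' deposited values of all 15 animals, r was 0.72 and rho 0.22 (adjusted permutation p = 0.0454 for r and 0.433 for rho), and r was 0.20 without control 17 and control 23. On those values the relation of COX6B2 rests on these 2 animals. For CYCS, r was -0.73 and rho -0.68 after quantile normalization (adjusted permutation p = 0.00623 for r and 0.0655 for rho). In the deposited values r was -0.65 and rho -0.55 (adjusted permutation p = 0.0341 for r and 0.125 for rho), but r was -0.32 there without the same 2 controls, so it too rests on them. Of the other 5 forms, COX7A1 reached an adjusted permutation p of 0.0477 for r without prednisolone 30 (r = -0.72, rho = -0.38), and r was -0.17 when control 17 was left out too. In the deposited values the adjusted permutation p for r was 0.037 for COX7A1 (r = -0.79), 0.0432 for COX6A2 (r = 0.57) and 0.037 for NDUFA4L2 (r = 0.63), but 0.133 for each of the 3 rank correlations. Without control 17 and control 23 on those values, COX4I2 had r = 0.71 and rho = 0.73 (adjusted permutation p = 0.0426 for r and 0.0454 for rho). On the scanner values its r was -0.17 over all animals and 0.057 without prednisolone 30.

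**Figure D5:**
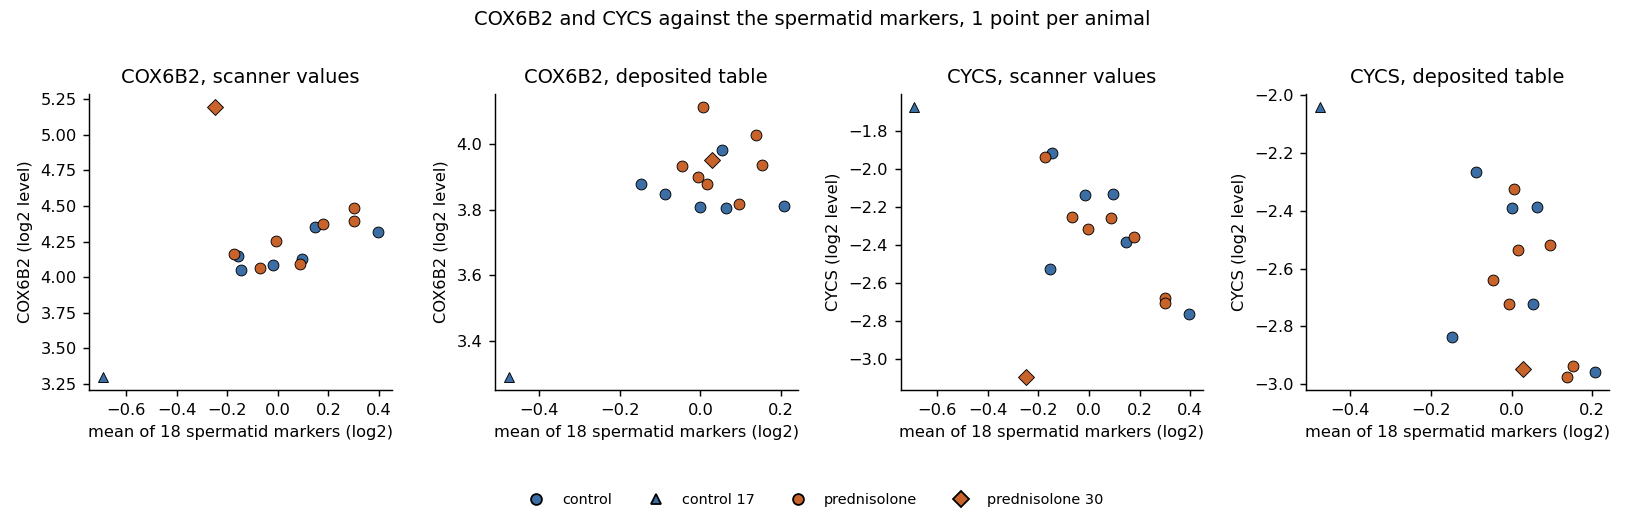
Log2 level of COX6B2 (left pair of panels) and CYCS (right pair) against the mean of 18 spermatid markers, 1 point per animal, from the scanner files and from the authors' deposited table. Control 17 is at the far left of every panel, at a spermatid mean of -0.69 on the scanner values, and prednisolone 30 has the highest COX6B2 and the lowest CYCS on those values.

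Genes that build and feed the respiratory chain were read from lists of their own, and 0 genes of these lists passed the adjusted threshold. The genes named from them were chosen after their values were seen. The median difference of all genes was 0.014 over all animals and 0.011 without prednisolone 30. The 22 assembly factors outside the naming rule had medians of -0.013 and -0.0062 in the same order. Over all animals, 1 of the 22 was lower at an unadjusted p under 0.05 in the limma fit (0.967% of all genes), and 0 were higher (1.46% of all genes). That gene, COX16, which helps to assemble complex IV, differed by -0.50 with all animals and by -0.33 without prednisolone 30. The 14 regulators of mitochondrial biogenesis had a median of 0.083 (0.029 without prednisolone 30) and 0 genes at that level. TFAM, which packages mitochondrial DNA and helps to transcribe it, differed by 0.17, by 0.51 without prednisolone 30, by -0.084 without control 17 and by 0.26 without both. PPARGC1A, a coactivator of mitochondrial genes, differed by 0.18, by -0.094 without prednisolone 30, by 0.38 without control 17 and by 0.11 without both. The 16 genes of the citric acid cycle and pyruvate dehydrogenase had a median of -0.090 (-0.0016 without prednisolone 30) with 0 genes at that level. The 9 nucleotide and proton carriers had a median of -0.022 (0.070 without prednisolone 30), with 0 genes at that level on the scanner values of all animals. SLC25A4, the muscle form of the ADP/ATP carrier, differed by 0.15, by 0.39 without prednisolone 30, by 0.26 without control 17, by 0.49 without both and by 0.39 in the deposited values (unadjusted p = 0.0436 in the limma fit).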

How the data were processed

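The deposited scanner files give the intensity of each spot as background-subtracted and detrended processed signal from Feature Extraction 9.5.1.1, per the file headers. The authors also deposited an intensity table of the same arrays, with column medians of 435 to 492; its values rank as the scanner values do (Spearman 0.999 or more on 14 arrays), it is linear with genes not centred, and the method used to level its columns is not stated. The submitters' processing notes name R 2.11.1. The deposited values were used on the log2 scale as an alternative. After 1417 control spots were left out, 42990 spots of 21475 probes remained. Outlier spots were masked, log2 spots averaged, and each array set relative to its 75th percentile. A probe was tested when well above background on at least 7 of 15 arrays. Symbols came from accessions and a RefSeq gene table; 66 of the 77 members were named by accession. Treated and control animals were tested by limma 3.58.1 under R 4.3.3 (threshold 0.05, Benjamini-Hochberg over all probes), after the fit was tested on simulated data. Relations used 100000 permutations, or all orders below 10 animals.

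Members, lists and tests were chosen with earlier results of these data known. Named genes were those of the isoform pairs, the 4 of smallest unadjusted p on either side, 9 central subunits, the 4 with the largest spread, and any past the threshold (0). The separate animals are 1 array each, and their number limits the precision. Alternatives covered scaling, background, the filter, slide, scan day, array weights and single animals.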

Additional observations from a re-analysis of the deposited data

Results flagged for a closer look

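In 15 of 64 sets of animals (the named genes and the pair shifts, each group on its own), the highest or lowest animal lay further from the next than Dixon's 95% criterion allows, where about 1 in 20 such sets, 3.2 here, would do so by chance. Prednisolone 30 was that animal in 10 of them. Its level was the lowest treated one for COX4I1 (4.40, next 5.27), COX7A1 (-0.63, next 0.26), COX7B (1.40, next 2.32), NDUFA1 (-0.078, next 0.85) and ATP5F1A (3.10, next 4.16). It was the highest treated one for COX6A2 (-0.27, next -3.78), COX6B2 (5.19, next 4.49), UQCRB (-0.48, next -4.39) and UQCRC2 (1.85, next 1.30), and for the shift of COX4I2 against COX4I1 (2.89, next 0.92). Control 17 stood apart in 4 genes, as the lowest control for COX6B2 (3.30, next 4.05), NDUFV1 (3.34, next 3.67) and UQCRC1 (3.27, next 3.83) and the highest for COX7A1 (1.59, next 0.67). Control 20 was the lowest control for the shift of COX8B against COX8A (-2.56, next -0.16).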

How the results depend on the processing

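No adjusted call arose among the 77 genes under any of the 16 settings run, and the fits' adjusted p values cannot show that levels did not differ. The number of animals and the dim array of prednisolone 30 limit the precision: 11 of the 77 probes were not well above background there. The mean of all tested probes gives no separate value, since each gene has 1 probe. The cause of the changes of sign below was not tested. Over all animals these genes, except NDUFS1 and UQCRFS1, had differences smaller than their standard errors. No paired analysis was possible because the groups share no animal numbers.

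The median of the 77 differences was -0.38 within slide 4 (1 control, 2 treated animals). There the shift of COX4I2 against COX4I1 was 1.43, and within slide 1 the shift of COX7A1 against COX7A2 was -1.06. Within slide 1 without control 17, chosen after seeing the data, the shift of COX6B2 against COX6B1 was 0.28 and that of NDUFA4L2 against NDUFA4 was -0.35. The latter was -0.33 within scan day 1 without control 17 and prednisolone 30, also chosen after seeing the data. The sign of a gene turned in the following settings. Within slide 4 the difference was -0.51 for COX7A2, 0.41 for COX8A, 0.12 for NDUFA4, -0.079 for CYC1 and -0.45 for ATP5F1A. Within slide 1 the difference was 0.29 for COX4I1, -0.12 for UQCRFS1, 0.19 for ATP5F1B, 0.15 for COX5A and 0.29 for UQCRC2. With slide as a block the difference was -0.017 for COX7A2, 0.053 for COX8A, -0.14 for ATP5F1A and 0.062 for UQCRC2. With scan day as a block, and equally within scan day 1, the difference was 0.040 for COX4I1, 0.012 for NDUFA4, -0.096 for ATP5F1A and 0.095 for UQCRC2. With median scaling the difference was -0.010 for COX7A2, -0.026 for NDUFV1 and -0.014 for ATP5F1A. With normexp correction the difference was -0.017 for COX7A2, 0.035 for NDUFS1, -0.041 for NDUFV1, -0.097 for SDHB and -0.086 for ATP5F1A. With array weights the difference was 0.045 for COX4I1, 0.023 for NDUFA4 and -0.039 for NDUFV1. In the deposited table the difference was 0.070 for COX4I1. Without control 17 and prednisolone 30 the difference was 0.050 for COX4I1, -0.0070 for COX7A2, 0.057 for NDUFA4 and 0.0031 for SDHA. Leaving out control 17 or prednisolone 30 in turn gave COX4I1 from -0.088 to 0.11, COX7A2 from -0.045 to 0.091, NDUFA4 from 0.016 to 0.031, NDUFV1 from -0.021 to 0.079 and SDHA from -0.023 to 0.013.

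For the relations to the spermatid markers, these values turned sign or crossed the threshold. Without prednisolone 30, r was -0.84 for CYCS, 0.057 for COX4I2, 0.41 for COX6A2, 0.90 for COX6B2 and -0.72 for COX7A1. In the deposited table, r was -0.65 for CYCS, 0.37 for COX4I2, 0.57 for COX6A2, 0.72 for COX6B2, -0.79 for COX7A1 and 0.63 for NDUFA4L2. Without control 17 and control 23, r was -0.067 for COX6B2, 0.28 for COX7A1 and -0.027 for NDUFA4L2. Within scan day 1, r was -0.19 for COX8B. The remaining settings were chosen after seeing the data. Without prednisolone 30, control 17 and control 23, r was -0.71 for CYCS, 0.15 for COX4I2, 0.25 for COX6A2 and 0.80 for COX6B2. Within scan day 1 without prednisolone 30, r was -0.93 for CYCS, 0.58 for COX6A2, 0.95 for COX6B2 and -0.16 for COX8B. Without control 17 and prednisolone 30, r was -0.78 for CYCS, 0.18 for COX4I2, 0.23 for COX6A2 and 0.77 for COX6B2. After quantile normalization, without prednisolone 30, r was -0.73 for CYCS, 0.20 for COX4I2, 0.62 for COX6A2 and -0.84 for COX7A1. In the deposited table, without prednisolone 30, r was -0.67 for CYCS, 0.37 for COX4I2, 0.57 for COX6A2, 0.72 for COX6B2, -0.79 for COX7A1 and 0.65 for NDUFA4L2. In the deposited table, without control 17 and control 23, r was 0.71 for COX4I2 and 0.28 for COX6A2.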

Other observations

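Another 14 subunits and assembly factors of the respiratory chain were on the array under names outside the naming rule, and 0 of them passed the adjusted threshold. NDUFAF4, an assembly factor of complex I, was the one with the smallest unadjusted p. Its controls ran from -5.23 to -3.71 and its treated animals from -4.43 to -3.20, and it differed by 0.54 with a standard error of 0.22 (unadjusted p = 0.0258, limma adjusted p = 0.883), or 0.46 without prednisolone 30. ATP5MK, a small membrane subunit of complex V, differed by 0.43 with a standard error of 0.21 (limma adjusted p = 0.883), or 0.30 without prednisolone 30. NDUFA11, NDUFA12 and NDUFA13, accessory subunits of complex I, differed by 0.11, 0.019 and 0.020.

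COX8B, the muscle form of complex IV subunit 8, spread more between animals than any of the 77 genes. Its lower levels were -3.84 in control 20 and -4.02 to -3.19 in 5 treated animals (25, 27, 29, 31 and 32). In the other controls it lay between -1.52 and -0.70, and in the other treated animals at -1.38 (prednisolone 30), -0.40 (prednisolone 28) and 0.66 (prednisolone 26). No animal lay between -3.19 and -1.52, and both groups had animals on either side. The difference between the groups was -1.002 with a standard error of 0.71 (unadjusted p = 0.177, limma adjusted p = 0.883).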
